A study of Homo sapiens with 8 samples.

Results

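Asparagine tRNA carries the anticodon GTT and delivers asparagine to the ribosome. Crosslinks on this tRNA were followed over 8 iCLIP libraries of the dihydrouridine synthases DUS1L and DUS2L. Its members were all references whose name marks an asparagine tRNA gene, counted on the sense strand: 17 references of 254 in the files, with 524 of the 16258 sense sites (a site is a position on a reference). The reference Asn-26-1 gives no anticodon in its name and all others give GTT. All were summed as tRNA-Asn-GTT, since no other asparagine anticodon was found.

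The cells were Flp-In T-REx 293, a human embryonic kidney line in which a single inserted gene is switched on by tetracycline, here 3xFLAG-DUS1L or 3xFLAG-DUS2L. The tagged enzyme was therefore expressed from an induced transgene, and no cells without a transgene were analysed here. Every culture was induced with 1 µg/mL tetracycline for 12 h, after which the medium was renewed with the same tetracycline for a further 12 h. The untreated groups received nothing else, and the treated groups received 100 µM 5-chlorouridine (5-ClUrd) during those last 12 h. Each of the 4 groups (untreated and 5-ClUrd for each enzyme) held 2 libraries. The p-values measure the spread between these libraries.

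Dihydrouridine synthases reduce uridine in RNA to dihydrouridine, a base that stacks poorly and is found mostly in the D-loop, the loop near the 5′ end of a tRNA. DUS1L and DUS2L each act on different uridines of that loop. 5-Chlorouridine is taken up into RNA and can leave the catalytic cysteine of such an enzyme bound to its substrate, so that a stop of reverse transcription in iCLIP (individual-nucleotide crosslinking and immunoprecipitation) can mark a trapped base. In asparagine tRNA the first anticodon base is also exchanged for queuosine, and an aminoacyl-tRNA synthetase of class IIb charges it.

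The 17 references name 25 genes, since copies of like sequence share a reference. RefSeq (GRCh38.p14) lists 21 of these genes, 17 on chromosome 1 and 4 elsewhere. The 5 references with the most counts each name 1 gene on chromosome 1. They were TRN-GTT1-1 (chr1:161540241-161540314), TRN-GTT3-1 (chr1:144419267-144419340), TRN-GTT4-1 (chr1:16889677-16889750), TRN-GTT6-1 (chr1:143735920-143735993) and TRN-GTT9-1 (chr1:145475381-145475454). Each of these genes is a transcript of 74 nt by its coordinates, so that counts on them need no correction for length. Reference Asn-GTT-2-3 stands for 8 genes, 4 of which lie on chromosomes 10, 13, 17 and 19. Positions are those of the deposited sites, where 1 is the first base at the 5′ end.

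Libraries differed in depth. Sense counts ranged from 130011 to 824657 per library, except that replicate 2 of untreated DUS1L held 7369. Asparagine tRNA had 147 counts in that library, against between 1861 and 41326 in the other 7, so that a share of its asparagine counts under 2.04% (3 counts) could be missed there. Intervals and such limits cover counting error only. Single sites seldom passed 1000 counts: the highest asparagine site held 1063, 1023, 1004 and 983 counts in the 4 treated libraries, and 439, 23, 390 and 597 in the untreated ones. Sites above 500 counts held 47.4% and 35.9% of asparagine counts in treated DUS1L and 44.1% and 40.8% in treated DUS2L, but at most 19.4% in an untreated library. Whether a limit on the count per site compressed these values was not tested.

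Crosslinks on asparagine tRNA took a larger share of the library after 5-ClUrd with both enzymes. In DUS1L cells the share of all sense counts was 1.80% and 1.99% untreated, and 5.01% and 4.66% with 5-ClUrd. In DUS2L cells it was 1.43% and 1.79% untreated, and 2.83% and 3.16% treated. Every treated library lay above every untreated library. The treated libraries lay above the untreated ones in this way in 32 of 52 families in DUS1L (61.5%) and in 32 of 54 in DUS2L (59.3%), and below them in 7 (13.5%) and 16 (29.6%). For asparagine tRNA both treated DUS1L libraries lay above both treated DUS2L libraries. Only the DUS2L data are named as premapped to noncoding RNAs, so that enzyme and processing cannot be told apart here. This holds for every comparison between the enzymes below. Among the 54 families (49 tRNA families and 5 ribosomal RNA families), asparagine tRNA ranked 12 and 11 in untreated DUS1L and 5 and 6 in treated DUS1L. In DUS2L it ranked 20 and 16 untreated, and 12 and 9 treated.

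The rise passed the test in both enzymes (edgeR, quasi-likelihood, with p-values adjusted over all families by Benjamini-Hochberg). In DUS1L the log2 fold change was 1.35 ± 0.35 (SE, n = 2 libraries per group; adjusted p = 0.0337), where 12 of 52 families tested were called higher (23.1%) and 1 was called lower. In DUS2L it was 0.90 ± 0.22 (adjusted p = 0.0102), where 29 of 54 families were called higher (53.7%) and 13 lower. The median log2 change of all families tested was 1.32 in DUS1L and 0.83 in DUS2L, so that asparagine tRNA lay close to the middle of the families on this scale. Scaled by TMM instead, which puts most families near no change, the asparagine values were 0.33 (adjusted p = 0.68) and 0.26 (adjusted p = 0.362). The rise is thus in the share of the library. The call was also lost without either treated DUS1L library (adjusted p = 0.497 and 0.498), and in DUS2L without either untreated library (adjusted p = 0.216 and 0.103). Over the 15 alternatives run for each enzyme, the adjusted p ranged from 1.3e-10 to 0.87 in DUS1L and from 1.38e-06 to 0.633 in DUS2L.

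**Figure D1:**
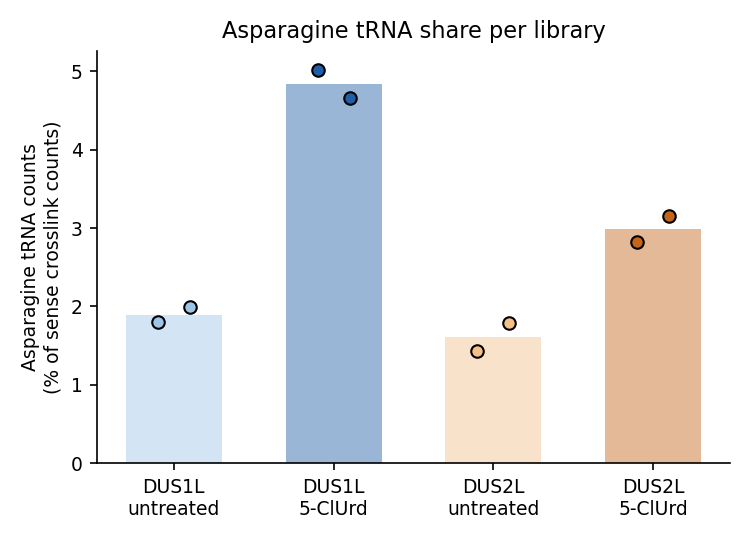
Share of sense crosslink counts on asparagine tRNA, in percent, for the 8 libraries; points are libraries and bars are means of the 2 libraries of a group. The 2 treated libraries of each enzyme lie above its untreated ones, at 5.01% and 4.66% for DUS1L and 2.83% and 3.16% for DUS2L.

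The effects of 5-ClUrd in the 2 enzymes were not shown to differ. The difference of the log2 changes, DUS2L minus DUS1L, was −0.46 ± 0.39 (adjusted p = 0.332), in a comparison where 16 of 54 families passed (29.6%). Between the treated libraries asparagine tRNA was at −0.69 ± 0.28 in DUS2L relative to DUS1L (adjusted p = 0.0583), just outside the threshold, where 35 of 54 families passed (64.8%). Between the untreated libraries the value was −0.23 ± 0.28 (adjusted p = 0.433), where 49 of 54 families passed (90.7%). The sign of this last value changed with the scaling and is not read.

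Families that share a modification or a synthetase class with asparagine tRNA were mixed. Asparagine tRNA is itself counted in both sets below, so that each count and median includes its own value and is no test. Apart from it, only tRNA-Asp-GTC rose in DUS1L in either set. Queuosine is also placed in tRNA-Asp-GTC, tRNA-His-GTG and tRNA-Tyr-GTA. Of these 4 families, 2 rose in DUS1L (asparagine, and tRNA-Asp-GTC at 2.91 ± 0.76, adjusted p = 0.0337) and none fell, with a median log2 change of 1.66, against 12 of 52 higher (23.1%) and a median of 1.32 over all families. In DUS2L 2 rose (asparagine, and tRNA-Tyr-GTA at 2.04 ± 0.23) and tRNA-His-GTG fell (−0.57 ± 0.20, adjusted p = 0.0382), with a median of 0.26, against 29 of 54 higher (53.7%) and a median of 0.83 over all families. The share of tRNA-Asp-GTC was 0.0637% and 0.0407% in untreated DUS1L, but 10.6% and 9.68% in untreated DUS2L. Asparagine tRNA, with 1.80% and 1.99% against 1.43% and 1.79%, showed no such gap. The class IIb synthetases charge asparagine, aspartate and lysine tRNAs. Of those 4 families, 2 rose in DUS1L (asparagine and aspartate) and 3 in DUS2L, namely asparagine, tRNA-Lys-CTT (1.93 ± 0.25) and tRNA-Lys-TTT (1.62 ± 0.21). None of the 4 fell in either enzyme, and their median log2 changes were 1.13 and 1.26, set against the same shares and medians of all families (23.1% and 1.32, 53.7% and 0.83).

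The families whose log2 level over the 8 libraries was most like that of asparagine tRNA were tRNA-Thr-AGT (Pearson r = 0.938), tRNA-Thr-CGT (r = 0.887) and tRNA-Ala-CGC (r = 0.871). These correlations describe libraries that share groups and depth. tRNA-Thr-AGT held 0.479% and 0.421% of counts in untreated DUS1L and 2.59% and 2.72% in treated DUS1L. In DUS2L it held 0.140% and 0.130% untreated and 1.36% and 1.28% treated, a lower level than asparagine tRNA in every library. Its rise was 2.55 ± 0.57 in DUS1L and 3.29 ± 0.20 in DUS2L.

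The counts were spread unevenly over the asparagine genes. The 5 leading references held 80.8% of all asparagine counts, and 6 of the 17 held under 1% of them each. Asn-GTT-1-1 held 38.0% and 31.3% of asparagine counts in untreated DUS1L and 25.2% and 28.2% in treated DUS1L. The DUS2L libraries had 37.6% and 38.8% of theirs there untreated, and 37.5% and 28.8% treated. Asn-GTT-1-1 was the leading reference in DUS1L in all 4 libraries.

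Asn-GTT-3-1 led in DUS2L in 3 of 4 libraries. It held 42.3% and 42.5% of asparagine counts in untreated DUS2L and 35.7% and 44.5% in treated DUS2L. In DUS1L it held 10.2% and 29.9% untreated and 20.7% and 21.2% treated. All 4 DUS2L libraries lay above all 4 DUS1L libraries.

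Smaller references also differed between the libraries of the 2 enzymes. Asn-GTT-7-1 held 9.80% and 12.2% in untreated DUS1L and 5.77% and 4.16% in treated DUS1L, but at most 2.20% in each DUS2L library. Asn-GTT-25-1 held 3.72% and 6.31% in treated DUS2L, against 0.752% or less in the other 6 libraries. Asn-GTT-2-3, the reference of 8 genes, held 4.97% and 6.56% in treated DUS1L and at most 2.04% elsewhere.

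The references did not cover the same part of the tRNA. Counts on Asn-GTT-1-1 lay at positions 8 to 59, those on Asn-GTT-3-1 at 2 to 26 and those on Asn-GTT-2-3 at 4 to 26. Asn-GTT-6-1 was covered from position 2 to 64. The copies are near-identical, and how the authors' alignment divided reads among them is not given in the sources used here. A difference between references can therefore be a difference in position, and single genes are uncertain.

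**Figure D2:**
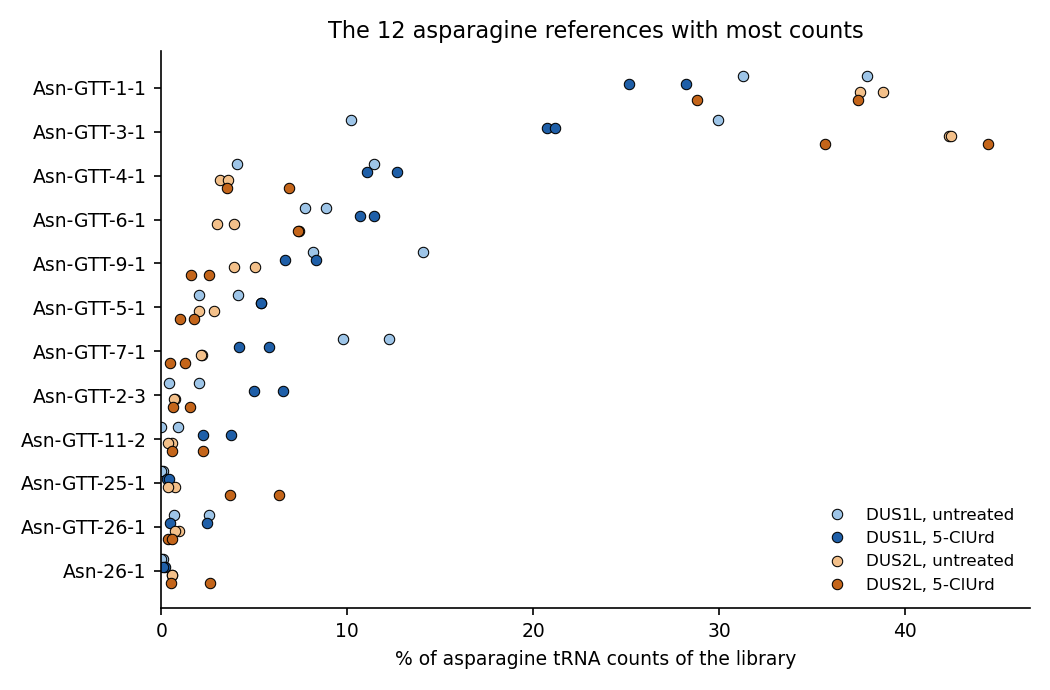
Share of each library's asparagine counts on the 12 asparagine references with most counts, in percent; each point is a library, coloured by group. Asn-GTT-3-1 lies further right in the 4 DUS2L libraries (35.7% to 44.5%) than in the 4 DUS1L libraries (10.2% to 29.9%).

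Along the tRNA, crosslinks had a few fixed peaks in all groups, led by position 27 at the junction between the D-arm and the anticodon arm. Regions were set by position: the 5′ end (1 to 9), the D-arm (10 to 25), the hinge (26 and 27), the anticodon arm (28 to 43), the variable loop (44 to 48) and the T-arm (49 to 65). Without a sequence at hand these are ranges of reference positions and not the standard tRNA numbering. Position 27 held 47.8% and 45.6% of asparagine counts in untreated DUS1L and 14.7% and 20.6% in treated DUS1L. For DUS2L the values were 31.8% and 30.9% untreated, and 21.01% and 14.4% treated. The treated libraries lay below the untreated ones in both enzymes.

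In all other tRNA families taken as a sum, position 27 held 4.09% and 3.67% of counts in untreated DUS1L and 4.03% and 4.05% in treated DUS1L. For DUS2L these values were 6.45% and 7.45% untreated, and 5.97% and 3.39% treated. Asparagine tRNA was above these values in all 8 libraries, a description with no test.

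Although its share of asparagine counts was lower after treatment, the level of position 27 in the library did not pass the test. The mean was 8842 CPM (sense counts scaled to a library total of 1000000) in untreated and 8484 CPM in treated DUS1L (log2 fold change −0.06 ± 0.72, adjusted p = 0.957). In DUS2L it was 5037 and 5238 (0.06 ± 0.25, adjusted p = 0.87). The asparagine site with the most counts over all libraries was position 27 of Asn-GTT-1-1, with 1063 and 1023 counts in treated DUS1L and 1004 and 858 in treated DUS2L. The highest site on any reference held 1269 and 1061 counts in treated DUS1L and 1428 and 1436 in treated DUS2L. Position 27 was also high on other references in treated DUS1L. It held 1042 and 970 counts on Asn-GTT-4-1, 999 and 897 on Asn-GTT-6-1, and 994 and 943 on Asn-GTT-9-1. In replicate 1 of untreated DUS1L it held 341 counts on Asn-GTT-1-1, and 211, 114 and 282 on these references. Whether a limit on the count per site lowered the treated level and share of position 27 was not tested.

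Position 26, next to it, passed the test in DUS2L. It had 908 and 860 CPM untreated and 2548 and 1441 treated, a rise of 1.17 ± 0.44 on the log2 scale (adjusted p = 0.0232). The call was lost in 7 of 14 alternatives, among them those without either untreated library (adjusted p = 0.215 and 0.234) and without replicate 1 of the treated group (0.70, adjusted p = 0.213). In DUS1L it had 700 and 1357 CPM untreated, and 6528 and 4695 treated. There the groups did not overlap, but the change of 2.499 ± 0.96 missed the threshold (adjusted p = 0.0671).

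Other prominent positions were 21, 9, 59 and 2. Position 21, at the 3′ side of the D-loop, held between 6.25% and 12.9% of asparagine counts in all 8 libraries and passed the test in neither enzyme (DUS1L 0.84 ± 0.92, adjusted p = 0.459; DUS2L 0.79 ± 0.35, adjusted p = 0.0552). Position 9 rose in DUS2L (0.99 ± 0.37, adjusted p = 0.0218, lost in 5 of 14 alternatives), from 8.76% and 9.14% of asparagine counts to 8.23% and 10.8%. Its share therefore overlapped while its level in the library rose. In DUS1L position 9 held 0.54% and 8.16% untreated and 4.68% and 5.75% treated, with no call (adjusted p = 0.282).

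Position 59, in the T-arm, rose in DUS2L from 508 and 1249 CPM to 2092 and 3099 (1.56 ± 0.41, adjusted p = 0.00142). In DUS1L it had 3458 and 1900 CPM untreated, and 2711 and 3786 treated. Those groups overlapped (0.26 ± 0.91, adjusted p = 0.828).

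Position 28 held 3.05% and 0% of asparagine counts untreated and 5.34% and 4.09% treated in DUS1L (2.73 ± 1.23, adjusted p = 0.104), and in DUS2L 1.67% and 1.72% against 2.92% and 1.70% (1.31 ± 0.70, adjusted p = 0.112). In DUS1L positions 14 and 15 were also among the 10 fullest treated positions, at means of 2.24% and 2.34%, and did not pass (1.40 ± 1.57, adjusted p = 0.47, and 2.87 ± 1.31, adjusted p = 0.107). In DUS2L position 20, at a mean of 2.08% treated, did not pass either (1.63 ± 0.74, adjusted p = 0.0638).

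At position 2 the share of asparagine counts was higher in all 4 DUS2L libraries than in all 4 DUS1L libraries. It held 0.386% and 0.68% of asparagine counts in untreated DUS1L, on 10 counts and 1 count. Treated DUS1L had 2.80% and 1.98% there, a rise in level of 3.81 ± 1.25 (adjusted p = 0.039). This call was lost in 6 of 14 alternatives, among them those without replicate 1 of the untreated group (adjusted p = 0.116) and without either treated library (adjusted p = 0.505 and 0.385). The DUS2L libraries had 18.5% and 15.3% there untreated and 12.7% and 11.9% treated, with no call for the level (0.45 ± 0.31, adjusted p = 0.212). Between treated libraries it was higher in DUS2L by 1.66 ± 0.68 (adjusted p = 0.0376), a call lost in 9 of 18 alternatives, including those without any 1 of the 4 treated libraries or without either untreated DUS2L library (adjusted p from 0.0598 to 0.200). Of all asparagine counts at position 2, 77.4% lay on Asn-GTT-3-1, where this site held 990 and 983 counts in treated DUS2L.

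**Figure D3:**
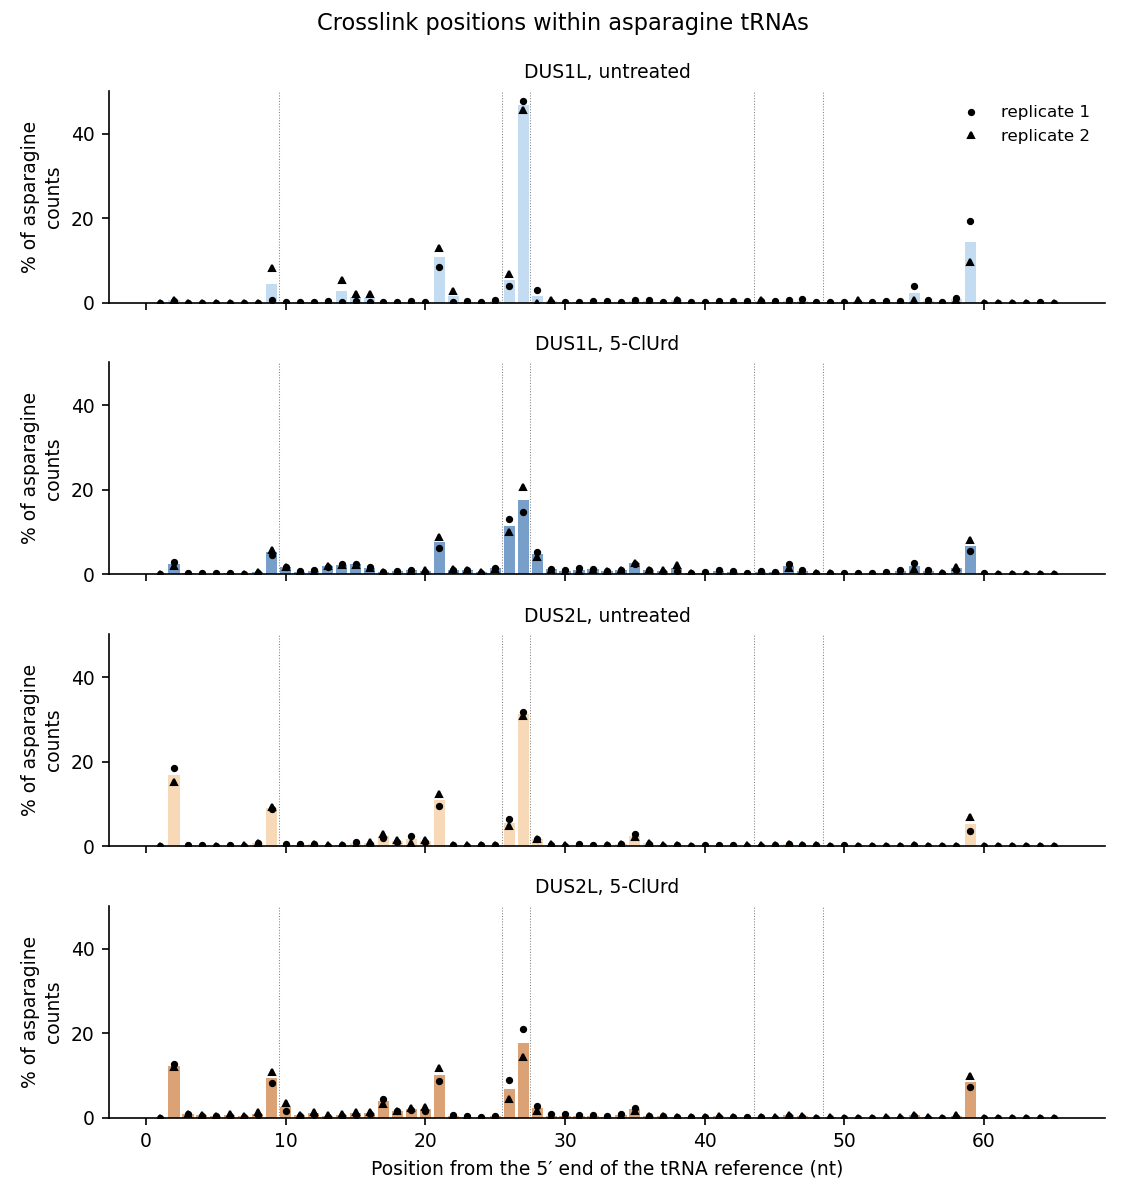
Percent of asparagine counts at each position from the 5′ end of the reference, in the 4 groups; bars are means of 2 libraries, points are the libraries, and dotted lines separate the position ranges named in the text. Position 27 is the highest in each panel, with means of 46.7% and 17.6% in untreated and treated DUS1L and 31.4% and 17.7% in DUS2L.

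Away from position 27, asparagine positions filled in after 5-ClUrd in DUS1L. Of 64 positions with a count, 63 passed the minimum of 10 counts, 29 of them rose (46.0%) and none fell; at an unadjusted p under 0.05 the count was 43. Of all positions tested, tRNA and rRNA, 26.8% were called higher in this comparison, and of the tRNA positions 29.1%. Called lower were 1.5% of all positions and 1.41% of the tRNA positions. By range, 7 of 8 positions tested at the 5′ end rose, 9 of 16 in the D-arm, none of 2 in the hinge, 9 of 16 in the anticodon arm, 1 of 5 in the variable loop and 3 of 16 in the T-arm. Of those 7, positions 3 to 8 had no untreated count. As a share of asparagine counts the 5′ end overlapped between the groups, at 0.926% and 8.84% untreated and 9.18% and 8.80% treated. The median log2 change over the 63 positions was 3.04, or 2.67 with unmeasured positions at their bound, against 2.81 over all positions tested. The 2.81 was taken from fitted values without bounds, so that it is to be set beside the 3.04 alone.

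Most of these calls compare many treated counts with hardly any untreated ones. Of the 29 positions, 8 had no untreated count at all and 17 had at most 3. For the 8 the fold is a lower bound, taken against 3 counts over both untreated libraries together. Position 8 was at least 10.98-fold higher, position 3 at least 7.54-fold, position 60 at least 5.81-fold, position 6 at least 5.55-fold and position 4 at least 4.81-fold. These are the positions of largest fitted change. Position 8, for example, had 172 and 125 counts in the treated libraries.

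Among positions with untreated counts, position 10 had 2 and 0 counts untreated and 665 and 417 treated, a ratio of 60.0 per sense count (95% interval 16.6 to 496, counting error only). Position 13 had 8 and 0 counts untreated, and 685 and 520 treated (4.22 ± 1.24, adjusted p = 0.0289). Position 35, in the anticodon loop range, had 15 and 0 counts untreated and 1009 and 683 treated (3.90 ± 1.24, adjusted p = 0.0364). Treated counts were far above untreated ones at all 3, while the treated libraries were also deeper. The calls depended on the untreated libraries: without replicate 1 of untreated DUS1L 2 positions were called, and without replicate 2 there were 43. Without either treated library 8 and 9 were called, with TMM or DESeq2 size factors 9 each, and with the DESeq2 Wald test 15. In no setting was an asparagine position called lower in DUS1L.

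In the main fit fewer asparagine positions were called in DUS2L than in DUS1L. This order turned with the scaling. TMM called 28 in DUS2L and 9 in DUS1L, DESeq2 size factors 23 and 9, and the DESeq2 Wald test 29 and 15. In the DUS2L main fit 57 were tested, 13 rose (22.8%) and none fell, and 22 had an unadjusted p under 0.05. Of all positions tested, 15.5% were called higher and 23.9% lower, and of the 1921 tRNA positions 537 were called higher (28%) and 105 lower (5.47%). The 13 were positions 3 to 6 and 9 at the 5′ end, 10, 12, 13 and 17 in the D-arm, 26 in the hinge, 30 in the anticodon arm, and 58 and 59 in the T-arm. The median log2 change over the 57 was 1.47, against −0.56 over all positions tested. All positions include those of rRNA, and no median over tRNA positions alone was taken. By calls in the main fit, the 22.8% of asparagine positions called higher lay below the 28% of tRNA positions. Under other scalings the asparagine share lay above that of tRNA positions. With TMM it was 28 of 57 against 767 of 1921. With DESeq2 size factors it was 23 of 57 against 668 of 1921, and with the DESeq2 Wald test 29 of 57 against 681 of 1921.

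The largest changes among these were at position 58 (4.37 ± 1.35, adjusted p = 0.00684) and position 10. Position 58 had 0 and 2 counts untreated and 30 and 74 treated. Position 10 had 8 and 4 counts untreated, and 169 and 412 treated (4.25 ± 0.86, adjusted p = 2.34e-05). Position 17, in the D-loop range, had 34 and 85 counts untreated and 480 and 389 treated (1.64 ± 0.58, adjusted p = 0.017). All 3 were higher in both treated libraries, in counts and in CPM. Positions 5 (3.34 ± 1.23, adjusted p = 0.0217), 4 (3.25 ± 1.18, adjusted p = 0.0202) and 3 (3.18 ± 1.06, adjusted p = 0.0128) had the next largest changes, from at most 5 counts in each untreated library. Without either untreated library edgeR called no asparagine position (3 and 7 at an unadjusted p under 0.05), without replicate 2 of the treated group 8 were called, with TMM 28 were called, and with the DESeq2 Wald test 29.

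**Figure D4:**
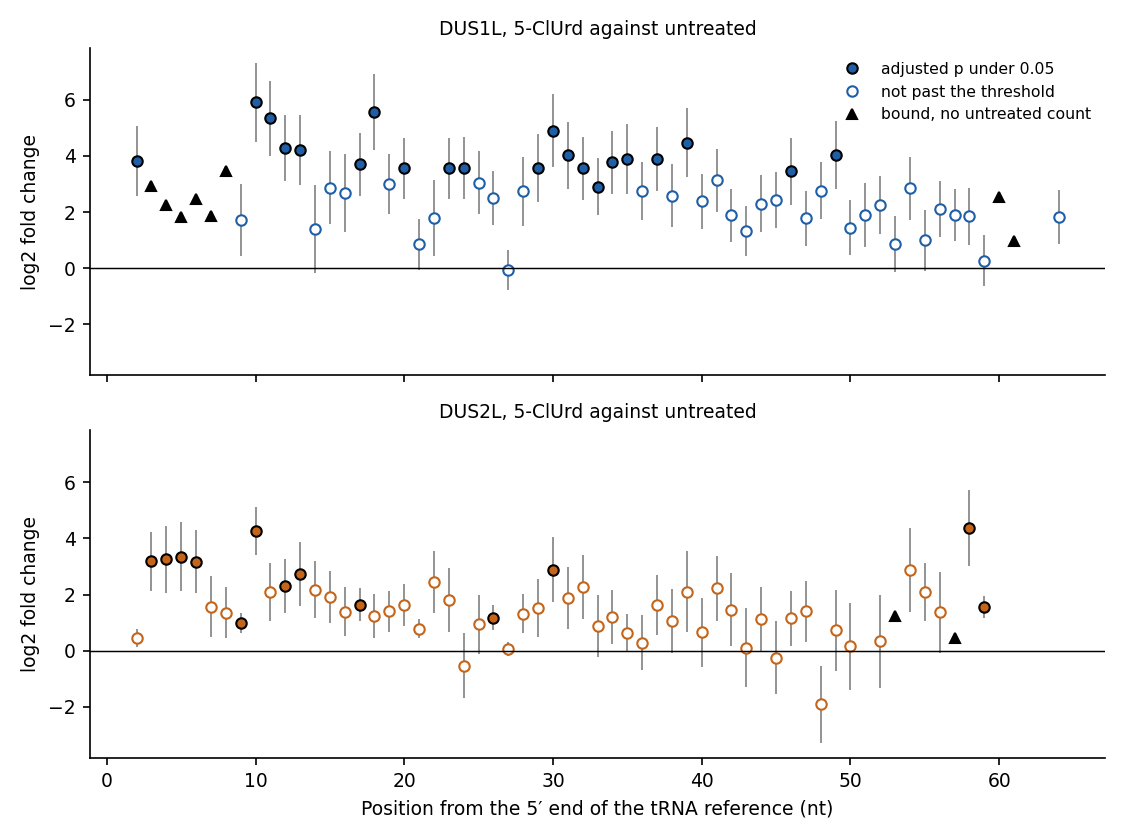
Log2 fold change of 5-ClUrd over untreated libraries at each asparagine position, with SE, for DUS1L and DUS2L; filled circles passed the threshold, open circles did not, and triangles are lower bounds for positions with no untreated count. In DUS1L 29 of 63 positions passed and in DUS2L 13 of 57, all of them upward.

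Positions 3, 4, 5, 6, 10, 12, 13, 17 and 30 were called in both enzymes, which is 31.03% of the DUS1L calls and 69.2% of the DUS2L calls. For scale, 46.0% of asparagine positions tested were called in DUS1L and 22.8% in DUS2L. The same overlap over all positions was not taken, so that this is a description. The difference of effects was not called at any of 63 asparagine positions, of which 6 had an unadjusted p under 0.05. Over all positions 2.51% were called for this difference. With DESeq2 size factors 2 asparagine positions were called and with the DESeq2 Wald test 6, all with the smaller rise in DUS2L.

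Single sites, a position on a single reference, moved only upward where they passed in the main fit. In DUS1L 110 of 296 asparagine sites tested rose (37.2%) and none fell, where 31.7% of all sites and 32.7% of tRNA sites were called higher. Few sites of any kind were called lower there, 2.31% of all sites and 2.29% of tRNA sites. Asn-GTT-1-1 had 26 of the 110, Asn-GTT-3-1 and Asn-GTT-4-1 had 18 each, Asn-GTT-6-1 had 14 and Asn-GTT-2-3 had 13. In DUS2L 24 of 158 sites rose (15.2%) and none fell, where 14.9% of all sites and 21.5% of tRNA sites were called higher. Called lower in DUS2L were 875 of all 5140 sites tested, and 172 of the 3485 tRNA sites. Asn-GTT-3-1 and Asn-GTT-25-1 had 6 of the 24 each. In the main fit the DUS1L share called higher lies somewhat above both backgrounds. The DUS2L share lies near that of all sites and below that of tRNA sites. The counts were 3 without replicate 1 of untreated DUS1L, 12 without replicate 2 of treated DUS2L, and 0 without either untreated DUS2L library (14 and 17 at an unadjusted p under 0.05, edgeR). By the DESeq2 Wald test they were 39 of 296 in DUS1L, against 598 of 4504 tRNA sites, and 43 of 158 in DUS2L, against 900 of 3485. Of the same numbers tested, TMM called 27 against 532 in DUS1L and 11 against 469 in DUS2L. DESeq2 size factors called 43 against 813 and 35 against 914. In DUS1L the asparagine share did not exceed that of tRNA sites under any of these scalings. In DUS2L it did so by the Wald test alone. With both strands, 1 asparagine site was called lower in DUS1L.

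The reference Asn-GTT-25-1 gave the clearest single-site change in DUS2L. Its position 2 had 9 and 4 counts untreated and 273 and 222 treated (3.89 ± 0.82, adjusted p = 7.64e-05). In DUS1L the same site had 1 and 0 counts untreated, and 20 and 44 treated, with no call (adjusted p = 0.0789).

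By region, the share of asparagine counts at the hinge was lower in the treated libraries. In DUS1L the hinge held 52.1% ± 0.456 (SD, n = 2) untreated and 29.2% ± 2.09 treated. The groups did not overlap. For DUS2L the hinge values were 36.9% ± 1.72 untreated and 24.5% ± 7.85 treated, again without overlap. The sum of all other tRNA families went the same way, also without overlap, from 18.03% ± 9.41 to 10.2% ± 0.301 in DUS1L and from 16.5% ± 0.742 to 12.2% ± 2.88 in DUS2L. With 2 libraries per group the exact two-sided permutation test cannot go below p = 0.333, so that no share difference can pass a threshold here.

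The D-arm, where dihydrouridine lies, did not separate the groups in DUS1L. It held 11.5% and 25.2% of asparagine counts untreated, and 24.7% and 26.2% treated (exact permutation p = 0.667). In DUS2L it held 19.6% and 22.3% untreated and 25.1% and 32.9% treated, without overlap (exact permutation p = 0.333). The difference of means was 7.11 percentage points in DUS1L and 8.04 in DUS2L. In the sum of all other tRNA families it was 15.5 and 4.65 points, without overlap in either enzyme. In DUS1L it was 0.276 points without replicate 1 of the untreated group, and −1.46 points with sites above 500 counts left out. Without position 21, which was high in every library, the D-arm held 2.97% and 12.2% untreated and 18.5% and 17.3% treated in DUS1L, and 9.99% and 10.1% against 16.5% and 21.1% in DUS2L.

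The anticodon arm held 7.52% and 1.36% of asparagine counts in untreated DUS1L and 20.002% and 17.9% in treated DUS1L, without overlap. In DUS2L it had 7.90% and 6.99% untreated, and 11.7% and 6.51% treated, where the groups overlapped. The difference between the enzymes in this range was not tested. The 1.36% in untreated DUS1L lies under the 2.04% that could be missed in that library. No share of this range was taken over the other tRNA families.

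Within the D-arm the treated libraries of the 2 enzymes differed by position. Between the treated libraries 27 of 63 asparagine positions passed, 2 higher in DUS2L (3.17%) and 25 lower (39.7%). Of all positions tested, 22.8% were called higher and 19.1% lower, and of the tRNA positions 27.7% higher and 32.7% lower. The asparagine share of lower positions is thus nearer to that of tRNA positions than to that of all positions. The 2 higher were positions 2 and 17. Position 17 had 306 and 199 CPM in treated DUS1L and 1294 and 1072 in treated DUS2L (2.23 ± 0.85, adjusted p = 0.0239). Both DUS2L libraries lay well above both DUS1L libraries.

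The 25 lower positions were 5 in the D-arm, 6 in the anticodon arm, 4 in the variable loop and 10 in the T-arm. Position 13 had 831 and 958 CPM in treated DUS1L, and 89.0 and 218 in treated DUS2L (−2.54 ± 0.90, adjusted p = 0.0144). Position 14 had 1198 and 979 in treated DUS1L, and 140 and 298 in treated DUS2L (−2.31 ± 0.86, adjusted p = 0.0208). These calls were lost in 6 of 18 alternatives at position 13 and in 9 of 18 at position 14. Positions 64 (−4.48 ± 1.29), 48 (−3.56 ± 1.06), 38 (−3.54 ± 0.95), 56 (−3.51 ± 0.99) and 60 (−3.28 ± 1.07) were lowest in DUS2L relative to DUS1L, position 64 with 53 and 40 counts in treated DUS1L and 1 in each treated DUS2L library.

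The count of lower positions depends on how libraries are scaled. Under DESeq2 size factors 16 asparagine positions were called higher in treated DUS2L and none lower, and under TMM 2 higher and 9 lower. The median over all positions tested was 0.69, 2.48 and 1.02 on the log2 scale in the fit by total counts, by DESeq2 size factors and by TMM. The asparagine median was −1.93, 0.04 and −1.52 in the same order, below the median of all positions in each. All positions include those of rRNA here too, and no median over tRNA positions alone was taken. Without replicate 1 or 2 of treated DUS1L, 5 and 9 asparagine positions were called, and without replicate 1 or 2 of treated DUS2L 13 and 17.

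A split within each library does not depend on that scaling. This split was chosen after the values had been seen. Of the counts at positions 13 to 20, those at positions 17 to 20 were 28.1% (95% exact binomial interval 26.8 to 29.5) and 24.6% (22.98 to 26.3) in treated DUS1L. In treated DUS2L they were 78.8% (76.4 to 81.0) and 69.3% (67.0 to 71.5). The untreated DUS2L libraries were at 75.7% and 79.2%, within the range of the treated ones or just above it. The untreated DUS1L libraries had 41 and 14 counts in the range, too few to place them: 18 and 0 of these lay at positions 17 to 20.

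The same order was seen on both leading references. On Asn-GTT-3-1 positions 17 to 20 held 27.7% and 28.6% in treated DUS1L and 78.4% and 69.2% in treated DUS2L. On Asn-GTT-1-1 they held 17.8% and 11.6% against 87.5% and 79.6%. Asn-GTT-7-1 went the other way in DUS1L, with 94.5% and 93.0%, and had under 50 counts there in each DUS2L library. Of 33 tRNA families with at least 50 such counts in every treated library, 27 had both DUS2L libraries above both DUS1L libraries (81.8%) and 4 had them below. Most of the tRNA families measured therefore had the same order as asparagine tRNA. The asparagine difference of means was 47.7 percentage points, the median family's was 25.7, and 3 families had a larger one. Since the cut was chosen after the asparagine values had been seen, this rank can be favoured by that choice and is not a test.

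**Figure D5:**
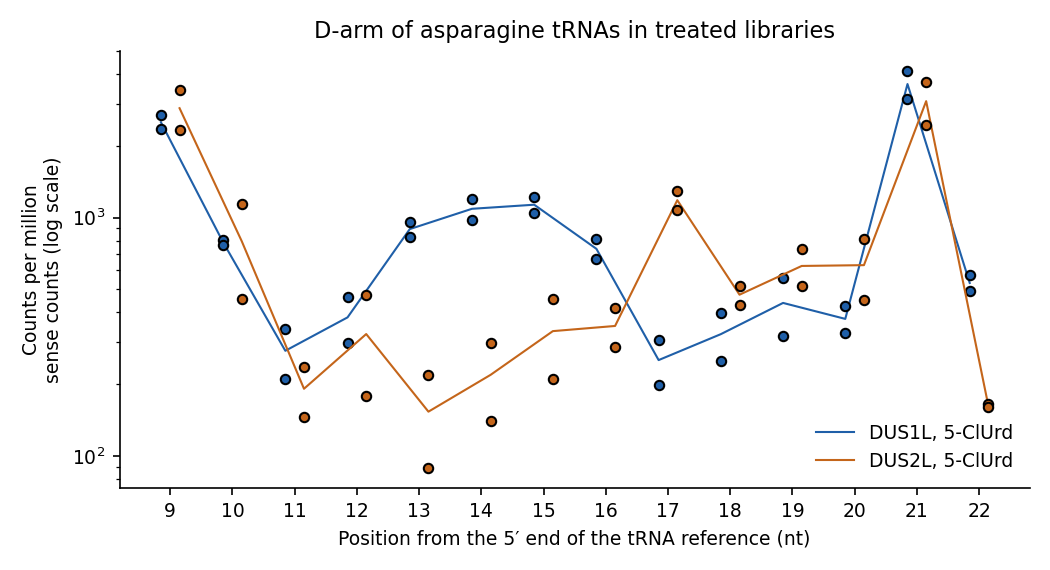
Counts at positions 9 to 22 of asparagine tRNA in the 4 treated libraries, in CPM on a log scale; points are libraries and lines join group means. DUS1L is higher at positions 13 to 16 and DUS2L at position 17, while the libraries of both enzymes overlap at position 21.

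The deposited peaks, intervals of a few nucleotides with their summed counts, held 70 peaks on the sense strand of asparagine references. Untreated DUS1L had 7 and 4 of them and treated DUS1L 16 and 12, while untreated DUS2L had 5 and 6 and treated DUS2L 9 and 11. Of all peaks of a library these were 5.56% and 10.8% in untreated and 4.78% and 4.69% in treated DUS1L, and 2.5% and 2.99% in untreated and 4% and 3.67% in treated DUS2L. As a share they were thus lower in the treated DUS1L libraries, although higher in number. Of these, 5 and 3 covered position 26 or 27 in untreated DUS1L, 8 and 6 in treated DUS1L, 5 and 5 in untreated DUS2L, and 6 and 6 in treated DUS2L. The highest asparagine peak lay on Asn-GTT-1-1 in 7 of 8 libraries, with 2789 and 2078 counts in treated DUS1L and 1783 and 1332 in treated DUS2L. The libraries held between 37 and 335 peaks in all, and the part of depth in these numbers was not tested.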

How the data were processed

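iCLIP sites of 8 libraries were analysed. The deposited site files give whole-number counts per position and strand, with no normalization, per the file headers and values; peaks carry the summed count of their sites in 1680 of 1680 cases. STAR 2.7.0f and hg38 were used, per the submitters' processing notes. Handling of molecular identifiers, multi-mapped reads and count limits is not given in the sources used here, and the DUS2L file names mention a premapping step that those of DUS1L do not. In comparisons between the enzymes, enzyme and such a step cannot be told apart.

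Sense counts were summed per family, per family and position, and kept per site. Of these, edgeR 4.0.16 (R 4.3.3) tested every family, position or site that reached 10 counts over the libraries of a fit. It used quasi-likelihood, total sense counts as library sizes and Benjamini-Hochberg adjusted p-values, called under 0.05. Standard errors follow from the F statistic. 5-ClUrd effects used an enzyme's 4 libraries, and the other comparisons all 8. Shares were compared by exact permutation tests. Sites above 500 counts were left out in an alternative, besides other scalings, DESeq2 1.42.0, other minimum counts, a replicate block, both strands and each library left out. Without Asn-26-1, a crossed block and the D-arm without position 21 were added after seeing the data. The fits were tested on simulated data. Python 3.11.15 with pandas 2.3.3, scipy 1.17.1 and matplotlib 3.10.9 made tables and figures.

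Text names the family, the 5 references with most counts, the 10 positions of highest treated share per enzyme, the 5 largest changes each way, the 3 most similar families and 2 family lists. Further references and positions were named after their values were seen. The members and lists were chosen with earlier results of these data known. Sequences of the tRNAs were not used here.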

Additional observations from a re-analysis of the deposited data

Results flagged for a closer look

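At positions 2 and 59 the share of asparagine counts moved in opposite directions in the 2 enzymes, with no overlap between treated and untreated libraries in either. In replicate 2 of untreated DUS1L these shares rest on 1 and 14 of 147 counts, and a share under 2.04% could be missed there. The lack of overlap in DUS1L is therefore uncertain. At position 2 the treated minus untreated difference of means was 1.86 percentage points in DUS1L and −4.55 in DUS2L. The test of the difference of effects on the level gave −3.41 ± 1.12 on the log2 scale (adjusted p = 0.0719, edgeR). At position 59 the share differed by −7.62 points in DUS1L and 3.33 in DUS2L (1.32 ± 0.93, adjusted p = 0.61). The difference in the shares themselves was not tested.

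Antisense counts on asparagine references lay outside the comparisons. In DUS2L they were 22.98 and 23.1 untreated per 1000000 counts of the library, and 59.1 and 256 treated, a treated mean of 157. Reference Asn-GTT-24-1 held 10 of 22 and 60 of 94 of the treated counts. In DUS1L they were 358 and 135 untreated, on 52 counts and 1 count, and 60.2 and 76.96 treated.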

How the results depend on the processing

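Depth is lowest in replicate 2 of untreated DUS1L, and the untreated libraries limit every position with few counts. With 2 libraries per group, leaving one out leaves a lone library, assumed to vary like the other group. Except where a value tells it, the cause of a change was not tested. Family values are log2 changes. For the DUS1L rise they were 0.33 (TMM), 0.10 (DESeq2 size factors), 0.096 (DESeq2 Wald test) and 1.93 without sites above 500 counts (adjusted p = 0.0899), none of them called. The DUS2L rise was 0.26, 0.14 and 0.14 under the first 3 of these, none called. The median family moved along with them, to 0.25 and 0.01 in DUS1L and 0.19 and 0.07 in DUS2L (TMM, DESeq2 size factors). The untreated comparison turned to 0.47, 0.24, 0.24 and, with tRNA families alone, 0.0095. With each library left out in turn the values were 1.28 to 1.43 (DUS1L), 0.74 to 1.06 (DUS2L), −0.61 to −0.29 (difference), −0.77 to −0.61 (treated, called without either untreated DUS1L library) and −0.40 to −0.08 (untreated).

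Positions called were, in DUS1L, 9 (TMM), 9 (DESeq2 size factors) and 15 (Wald), in DUS2L 28, 23, 29 and, at a minimum of 1 count, 6. Between treated libraries they were 11, 16, 13 and 16 in that order, and for the difference of effects 2 (size factors), 6 (Wald) and 1 (minimum of 50). Each library left out gave 2 to 43, 0 to 15, 5 to 33 and 0 to 3. Sites called in DUS1L were 27, 43, 39, 68 (minimum of 1) and 36 (all 8 libraries in a fit), with 3 to 128 by library left out. In DUS2L they were 11 (TMM), 43 (Wald), 2 (minimum of 1) and 3 (sites above 500 left out), with 0 to 27. The D-arm difference was −1.46 points in DUS1L with such sites left out and 2.49 in DUS2L with each site counted once, and 0.276 to 13.9 and 4.17 to 11.9 by library left out.

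Same-numbered libraries deviated together weakly (r = 0.07 in DUS1L, 0.24 in DUS2L, over families), so that the numbers are not shown to pair them. With the replicate block the DUS1L family gave 1.35 (adjusted p = 0.104), 10 DUS1L positions and 13 DUS2L sites were called, and DUS2L kept its family call (adjusted p = 0.0168). Between treated libraries r was −0.29; the crossed pairing as a block called 23 positions against 19 with the numbers as given, and neither called the family. In DUS1L position 21 turned to −0.17, −0.062 and −0.046 and position 59 to −0.77, −0.73 and −0.75 (TMM, size factors, Wald), and position 27 to 0.39 without sites above 500. By library left out, position 27 ranged from −0.26 to 0.12 in DUS1L and −0.15 to 0.24 in DUS2L, and position 59 from −0.090 to 0.77 in DUS1L. Of the 567 values of single named positions under alternatives, 428 kept their direction and side of the threshold and 11 changed sign.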
